A study of Mus musculus with 5 samples.

Results

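Solute carrier genes were examined for their place in a map of Nr1d1 binding in mouse Th1 cells, taken as every gene whose symbol begins with Slc and a number, without the glucose transporter genes Slc2a1 and Slc2a3, and that was the nearest gene of a peak in any of the deposited annotation tables. There were 116 such genes, of 12195 genes nearest to a peak, and of the 382 Slc symbols that RefSeq holds without those 2. Nr1d1 (REV-ERBα), a nuclear receptor of the circadian clock, had been pulled down in 3 ChIP libraries, beside 1 IgG mock pull-down and 1 input DNA library. The cells of all 5 began as naive CD4 T cells, taken from C57BL/6 wild-type animals 4 to 6 weeks old, and were activated with antibodies against CD3 and CD28, driven towards Th1 with IL-12, IFNγ and a block of IL-4 and harvested after 3 to 4 days. The cells were fixed with 1% formaldehyde for 30 minutes. In the labels the mock and the input carry the Nr1d1 antibody too, so the groups follow the sample titles. No source used here says whether the 3 ChIP libraries came from separate mice, and peak lists do not allow a check of Th1 markers.

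The deposited lists hold 19586 ChIP peaks and 17111 IgG peaks, each named by the depositors as a comparison with the input, of which the series has 1 library. ChIP peaks that lay apart from every IgG peak, 14471 in all, are called ChIP-specific here, and a ChIP peak that shared at least 1 bp with an IgG peak is called shared. There is 1 list per antibody, so the 3 ChIP libraries cannot be compared and no difference below was tested over samples. The only measures of strength are the false discovery rate (FDR) and the length of a peak. Shares are given with Wilson 95% intervals, which cover counting only.

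Solute carriers are membrane proteins that move amino acids, sugars, ions, metals, vitamins, nucleotides and drugs across the plasma membrane and the membranes of organelles, and the number after Slc gives the family by sequence relation. Activated T cells take up more amino acids, glucose and nucleosides than resting ones and depend on such carriers. REV-ERBα binds DNA at the half-site AGGTCA, preceded by A and T bases in its high-affinity sites, or at direct repeats of it, and recruits the NCoR-HDAC3 corepressor.

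Of the 373 Slc genes that RefSeq gives as protein-coding, 80 had a ChIP-specific peak assigned (21.4%, 17.6 to 25.9), against 17.5% of all 21896 protein-coding genes. An IgG peak was nearest to 75 (20.1%, 16.4 to 24.5), against 17.0% of all. Both kinds of peak were found at 39 genes (10.5%, 7.74 to 14.0), against 7.98% of all. The Slc shares were thus a few percentage points above those of all genes for the Nr1d1 antibody and for the mock, and the background share lay just under the Slc interval for ChIP-specific peaks and within it for IgG peaks. By peaks, 125 of 14469 annotated ChIP-specific peaks (0.864%), 44 of 5115 shared ChIP peaks (0.860%) and 128 of 17110 IgG peaks (0.748%) were assigned to Slc genes. At 41 genes there was a ChIP-specific peak and no IgG peak, and at 36 an IgG peak and no ChIP-specific one. Of these 36, 19 had a shared ChIP peak and 17 had no ChIP peak. Over all 21896 protein-coding genes, 3830 had a ChIP-specific peak, 3730 an IgG peak and 1748 both. Having a single kind of peak was thus not particular to Slc genes.

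Peaks of the promoter class lay at 21 Slc genes. A ChIP-specific promoter peak was found at 12 Slc genes (3.22%, 1.85 to 5.54, of 373), against 2.66% of all protein-coding genes, and an IgG promoter peak at 11 (2.95%, 1.65 to 5.20), against 3.20%. Both shares were close to the background. The sequences before the start sites of 6 of these genes are shown first, since the motif counts below refer to such windows: 4 carried a ChIP-specific peak, Slc4a4 a ChIP peak shared with the mock, and Slc22a22 an IgG peak with no ChIP peak there.

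Each line gives the 250 bases before a RefSeq start site (GRCm38.p6), 5′ to 3′ on the strand of the gene, with the bases under the deposited peak in capitals. The stretches are chr10:78780246-78780495, plus strand (Slc1a6, a glutamate transporter of cerebellar neurons), chr13:34345219-34345468, minus strand (Slc22a23, an organic ion transporter without a known substrate), chr17:45563686-45563935, plus strand (Slc35b2, the Golgi transporter of the sulfate donor PAPS), chr2:122702664-122702913, minus strand (Slc30a4, a zinc exporter), chr5:88887010-88887259, plus strand (Slc4a4, a sodium bicarbonate cotransporter) and chr15:57477626-57477875, minus strand (Slc22a22, a prostaglandin transporter of the kidney).
Slc1a6: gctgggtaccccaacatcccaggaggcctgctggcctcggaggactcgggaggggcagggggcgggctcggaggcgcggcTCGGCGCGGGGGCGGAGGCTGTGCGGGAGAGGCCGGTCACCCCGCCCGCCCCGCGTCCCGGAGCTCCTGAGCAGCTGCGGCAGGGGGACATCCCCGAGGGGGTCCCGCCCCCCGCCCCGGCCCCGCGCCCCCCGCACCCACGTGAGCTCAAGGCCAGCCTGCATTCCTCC
Slc22a23: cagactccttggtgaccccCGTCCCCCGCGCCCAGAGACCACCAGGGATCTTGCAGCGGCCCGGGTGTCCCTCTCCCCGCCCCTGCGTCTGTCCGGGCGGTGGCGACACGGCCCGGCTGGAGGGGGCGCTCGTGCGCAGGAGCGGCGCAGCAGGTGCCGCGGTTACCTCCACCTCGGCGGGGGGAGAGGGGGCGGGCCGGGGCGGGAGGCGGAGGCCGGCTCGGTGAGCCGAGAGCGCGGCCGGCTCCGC
Slc35b2: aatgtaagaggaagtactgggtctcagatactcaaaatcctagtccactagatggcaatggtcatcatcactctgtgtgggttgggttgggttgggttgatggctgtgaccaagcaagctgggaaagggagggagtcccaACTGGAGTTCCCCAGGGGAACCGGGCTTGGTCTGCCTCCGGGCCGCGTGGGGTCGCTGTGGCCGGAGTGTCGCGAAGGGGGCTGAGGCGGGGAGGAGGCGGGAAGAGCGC
Slc30a4: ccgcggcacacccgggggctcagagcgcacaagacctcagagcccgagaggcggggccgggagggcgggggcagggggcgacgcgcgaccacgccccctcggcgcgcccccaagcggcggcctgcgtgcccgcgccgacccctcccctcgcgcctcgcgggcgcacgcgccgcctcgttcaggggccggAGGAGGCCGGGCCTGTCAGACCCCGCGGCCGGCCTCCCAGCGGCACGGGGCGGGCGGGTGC
Slc4a4: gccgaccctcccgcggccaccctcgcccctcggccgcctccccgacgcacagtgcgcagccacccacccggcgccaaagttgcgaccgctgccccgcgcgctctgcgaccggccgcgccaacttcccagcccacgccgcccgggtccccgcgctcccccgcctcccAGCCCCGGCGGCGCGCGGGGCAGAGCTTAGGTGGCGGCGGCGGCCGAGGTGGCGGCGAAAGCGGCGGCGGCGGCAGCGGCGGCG
Slc22a22: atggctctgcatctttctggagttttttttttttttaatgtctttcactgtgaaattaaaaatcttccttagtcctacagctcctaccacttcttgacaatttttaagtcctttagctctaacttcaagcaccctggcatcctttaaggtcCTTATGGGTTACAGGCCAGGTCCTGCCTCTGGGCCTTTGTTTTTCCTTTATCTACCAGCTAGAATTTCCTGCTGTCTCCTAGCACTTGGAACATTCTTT

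The windows of the first 5 genes had a GC content of 62.0% to 81.7%, and that of Slc22a22 had 40.0% and 1 CpG pair. RefSeq windows of 300 bases, from 250 before to 50 after a start site, were available for 293 Slc genes. Of these windows 9 overlapped a ChIP-specific peak, and their GC content ran from 58.7% to 81.7% with a median of 69.3%, against 58.0% for the 355 Slc windows over no peak. The median number of CpG pairs was 28.0 against 13.0. The 5 windows over a shared ChIP peak had a median GC content of 79.0%, and the 6 over an IgG peak 74.8%. Over all genes the same held for both antibodies, with 69.0% in the 417 windows over a ChIP-specific peak, 70.7% in the 575 over an IgG peak and 52.7% in all 32851 windows.

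The half-site AGGTCA, searched on both strands, was found in 0 of the 9 Slc windows over a ChIP-specific peak (0%, up to 29.9%), in 15.5% of Slc windows over no peak and in 16.3% of all windows. In windows of all genes over a ChIP-specific peak its share was 9.35% (6.92 to 12.5), and in those over an IgG peak 9.22% (7.12 to 11.9). The extended form ANTAGGTCA, which contains the half-site, was found in 0 of the 9 and in 0.661% of all windows. In windows of all genes it was found in 0 of the 417 over a ChIP-specific peak (0%, up to 0.913%). Over an IgG peak its share was 0.348% (0.0954 to 1.26). Both intervals held the share of all windows. Direct repeats of the half-site with 2 bases between were found in 3 of the 32851 windows and in none of the Slc windows. One Slc window with a peak held a half-site, that of Slc24a3, a sodium, calcium and potassium exchanger, where it began at base 95 of the window and the shared peak at base 252. The GC box GGGCGG, on either strand, was found in 9 of the 9 Slc windows over a ChIP-specific peak, in 55.8% of Slc windows over no peak and in 74.1% and 73.7% of all windows over a ChIP-specific and an IgG peak. These counts describe windows at start sites only, since no genome sequence was used here.

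Nearest to a start site was the ChIP-specific peak of Slc30a4 (chromosome 2, 122702526 to 122702724, mm10), centred 14 bp downstream, with an FDR of 0.0105. Slc30a9, a zinc transporter linked to mitochondria, had a peak 95 bp downstream of its start (chromosome 5, 67306926 to 67307174, FDR 0.0124). Both zinc transporter genes were assigned no IgG peak. The peak of Slc35b2 was centred 64 bp upstream (chromosome 17, 45563826 to 45563974, FDR 0.00880), and a further ChIP-specific peak, called exonic, lay 1289 bp upstream and outside the RefSeq body of the gene (45562551 to 45562799, FDR 0.0102). Slc1a6 had its peak 71 bp upstream (chromosome 10, 78780326 to 78780524, FDR 0.0360). Slc19a2, a thiamine transporter, had a short peak of 125 bp at 32 bp downstream (chromosome 1, 164249026 to 164249149, FDR 0.0430). Slc25a5, which encodes an ADP/ATP carrier of the inner mitochondrial membrane, had one 671 bp downstream (X, 36796201 to 36796449, FDR 0.0105). These 6 genes had a ChIP-specific promoter peak and no IgG peak of any class.

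At the other 6 genes with a ChIP-specific promoter peak, an IgG peak was assigned to the same gene. Slc13a3, a sodium-dependent dicarboxylate transporter, had a ChIP-specific peak 37 bp downstream of a start (chromosome 2, 165473076 to 165473249, FDR 0.0149) and, 8624 bp from a start, an intronic ChIP peak with an FDR printed as 0 that was shared with the mock (165464401 to 165464749). Slc15a4, a lysosomal transporter of peptides and histidine needed for Toll-like receptor signals in immune cells, had a promoter peak 24 bp upstream (chromosome 5, 127617201 to 127617299, FDR 0.0414). It also had 2 intronic ChIP-specific peaks, one of them 243 bp from another start (127632476 to 127632799, FDR 0.00880), and 2 IgG peaks elsewhere in the gene. Slc22a29, an organic anion transporter, had its promoter peak 512 bp upstream (chromosome 19, 8219276 to 8219549, FDR 0.00880).

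Slc22a23 and Slc6a8, the creatine transporter gene, each had a ChIP-specific and a shared promoter peak. The ChIP-specific peak of Slc22a23 (chromosome 13, 34345201 to 34345449, FDR 0.00849) lay 327 bp from an IgG peak, and the shared one (34344651 to 34344924, FDR 0.00837) lay next to it over the IgG peak from 34344626 to 34344874. For Slc6a8 the shared peak was 375 bp long with an FDR of 0.00536 (X, 73673401 to 73673774), the IgG peak over it was 500 bp long with an FDR printed as 0, and the ChIP-specific peak lay further along at another start site (73678601 to 73678724, FDR 0.0118). Both genes thus had a promoter peak in the mock as well.

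Shared promoter peaks were found at 4 further genes, Slc4a4, Slc27a3, Slc9a7 and Slc40a1. Slc40a1 encodes ferroportin, the iron exporter, and its ChIP peak was centred 9 bp downstream of the start (chromosome 1, 45925501 to 45925699, FDR 0.00694) over an IgG peak with an FDR printed as 0. Slc27a3, of the fatty acid transport family, had a ChIP peak with an FDR of 0.0231 (chromosome 3, 90389626 to 90389774) over an IgG peak with an FDR printed as 0. In Slc4a4 the FDRs were 0.0129 for the ChIP peak (chromosome 5, 88887176 to 88887324) and 0.000281 for the IgG peak. The peaks of Slc9a7, a sodium proton exchanger of the Golgi, had the same bounds in both lists (X, 20291726 to 20291824), with FDRs of 0.0334 and 0.0364. At all 4 the IgG peak was at least as long as the ChIP peak. A further 5 genes had an IgG promoter peak and no ChIP promoter peak: Slc7a2, a transporter of arginine and lysine, Slc7a10, a transporter of small neutral amino acids, Slc22a22, Slc25a13, the mitochondrial aspartate-glutamate carrier, and Slc35e1.

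**Figure D1:**
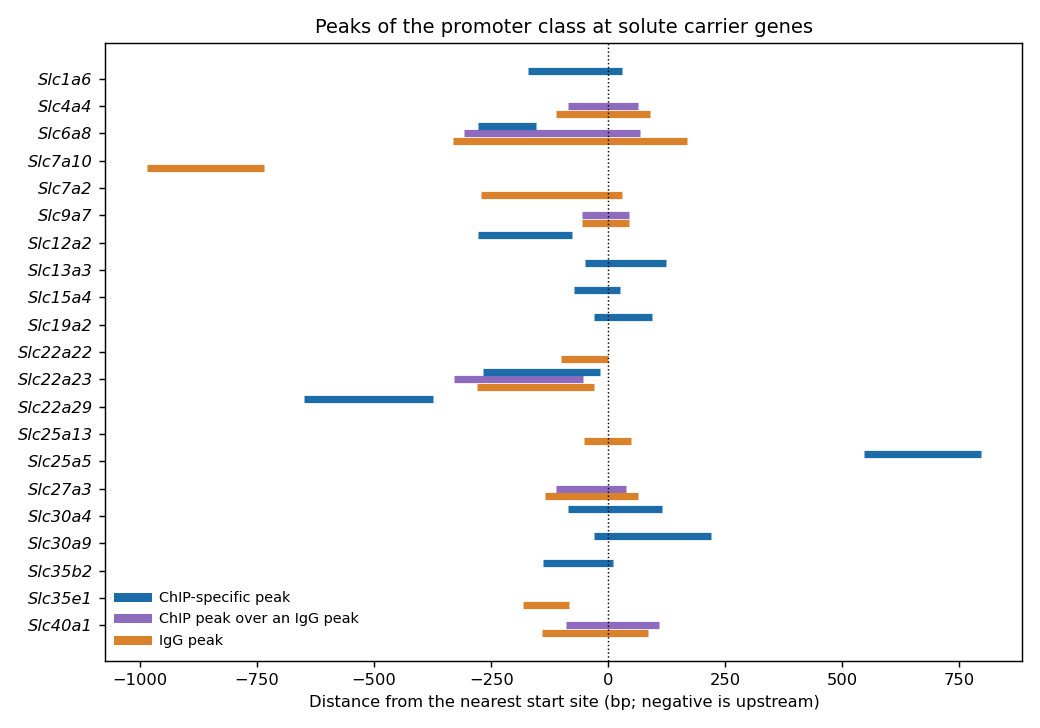
Peaks of the promoter class at 21 Slc genes, drawn by the distance of their centre from the nearest start site and their length in bp, with ChIP-specific peaks in blue, shared ChIP peaks in purple and IgG peaks in orange. Distances refer to the nearest of a gene's start sites, so peaks drawn over each other at Slc6a8 or Slc22a23 can belong to different sites; most bars lie close to 0, and Slc7a10, Slc22a29 and Slc25a5 lie further away.

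Exons held 10 ChIP-specific Slc peaks, of which 5 were within 1 kb of a start site. These were the peaks of Slc27a4, a fatty acid transporter (chromosome 2, 29802651 to 29802824, 103 bp downstream, FDR 0.0196), Slc17a7, a vesicular glutamate transporter (chromosome 7, 45163951 to 45164124, 116 bp, FDR 0.0103), Slc6a11, a GABA transporter (chromosome 6, 114131376 to 114131524, 209 bp, FDR 0.0431), Slc22a2, an organic cation transporter (chromosome 17, 12584376 to 12584524, 261 bp, FDR 0.00880), and Slc44a5, a choline-like transporter (chromosome 3, 153973576 to 153973874, 289 bp, FDR 0.0105). Of the other exonic peaks, that of Slc38a5, a glutamine transporter, lay 7308 bp from the start (X, 8278851 to 8279049, FDR 0.00899), and that of Slc6a5, a glycine transporter of neurons, 30187 bp from it (chromosome 7, 49941776 to 49941999, FDR 0.0106). Slc7a10 had an exonic peak (chromosome 7, 35197776 to 35197924, FDR 0.0158) and one at a termination site 1927 bp away (35195701 to 35195849, FDR 0.0157). The exonic peak assigned to Slc6a12, a betaine and GABA transporter, lay 25035 bp from its start and outside its RefSeq body (chromosome 6, 121383951 to 121384049, FDR 0.0190). Shared ChIP peaks in exons numbered 6. Those of Slc24a3 and of Slc2a13, a proton-coupled inositol transporter, were centred 106 and 257 bp downstream of a start, over IgG peaks of 475 and 500 bp.

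Termination sites held 4 ChIP-specific Slc peaks and no shared one. Slc38a8, a neutral amino acid transporter, had the one with the lowest FDR, 0.00297, and a length of 350 bp (chromosome 8, 119507726 to 119508074), and lay outside the RefSeq body of that gene. The others were at Slc35c2, of the nucleotide sugar family (chromosome 2, 165280851 to 165281074, FDR 0.00416), at Slc23a2, an ascorbate transporter (chromosome 2, 132060176 to 132060374, FDR 0.0303), and at Slc7a10. Termination sites of Slc7a9 and Slc15a4 carried IgG peaks only.

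By class, the share at other protein-coding genes lay within the Slc interval throughout, for both antibodies. Promoters held 9.60% of them (5.58 to 16), against 8.90% at other protein-coding genes, and exons 8.0% (4.40 to 14.1) against 7.19%. Introns held 42.4% (34.1 to 51.2) against 40.7%, and intergenic regions 36.8% (28.9 to 45.5) against 40.9%. All other genes together, predicted and noncoding ones included, had 57.4% of their ChIP-specific peaks between genes. For IgG peaks of Slc genes the promoter share was 8.59% (4.87 to 14.7), the intron share 43.8% and the intergenic share 40.6%. The median distance from a ChIP-specific Slc peak to the start site was 15395 bp (quartiles 3142 and 34361), against 19707 bp at other protein-coding genes, and that of IgG Slc peaks was 20686 bp against 22917 bp. Far peaks were fewer at Slc genes in both lists. Within 100 kb of a start lay 90.4% of ChIP-specific Slc peaks (84.0 to 94.4), against 82.6% at other protein-coding genes, and 90.6% of IgG Slc peaks (84.3 to 94.6), against 80.9%. These background shares lay below the Slc intervals.

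**Figure D2:**
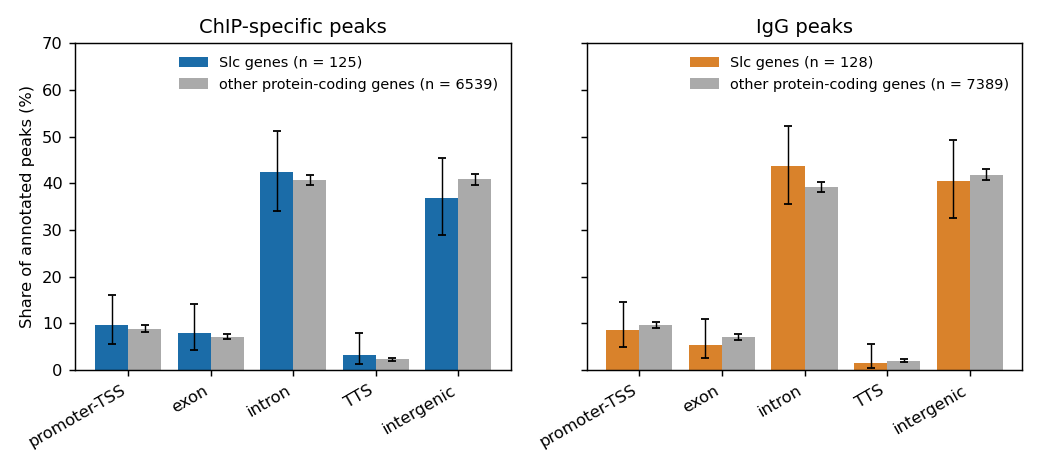
Share of annotated peaks in each genomic class, in percent, for Slc genes (coloured) and other protein-coding genes (grey), with ChIP-specific peaks on the left and IgG peaks on the right; error bars are Wilson 95% intervals. Introns and intergenic regions hold the tallest bars, and the share of other genes lies inside the Slc interval in all 5 classes of both lists.

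In strength, ChIP-specific Slc peaks had FDRs with a median of 0.0148 (quartiles 0.00928 and 0.0236), against 0.0139 at other protein-coding genes. Their lengths had a median of 175 bp against 200 bp. For shared Slc peaks these medians were 0.00766 and 300 bp. IgG peaks at Slc genes had a higher median FDR than those at other protein-coding genes, 0.0123 against 0.00725, with 200 bp as the median length of both. Their lower quartile of FDR was lower, 0.000482 against 0.000934. An FDR printed as 0 was found for 21.9% of them (15.6 to 29.8) against 18.7%. Of the 169 ChIP peaks at Slc genes 44 overlapped an IgG peak (26.0%, 20.0 to 33.1), against 26.1% of ChIP peaks at all other genes. Among the 15 with an FDR printed as 0, 14 did (93.3%, 70.2 to 98.8, against 90.8%). With an FDR above 0 and at most 0.01 the share was 33.3% (22.2 to 46.6) against 35.9%, and above 0.01 it was 12.0% (7.0 to 19.8) against 10.9%. The lower the FDR, the larger the part that the mock had too, at Slc genes as elsewhere.

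The 1 ChIP-specific Slc peak with an FDR printed as 0 lay in an intron of Slc44a1, a choline transporter (chromosome 4, 53509126 to 53509374). Slc44a1 also had 2 shared ChIP peaks, one of which began 8402 bp beyond it over an IgG peak with an FDR printed as 0. After Slc44a1 and Slc38a8 followed an intronic peak of Slc24a3 (chromosome 2, 145589226 to 145589524, FDR 0.00332), Slc35c2, and peaks called intergenic nearest to Slc9a3 (chromosome 13, 74103851 to 74104199, FDR 0.00478) and Slc9a8 (chromosome 2, 167394301 to 167394549, FDR 0.00515), both sodium proton exchangers. The next were nearest to Slc25a26, the mitochondrial carrier of S-adenosylmethionine (chromosome 6, 94413876 to 94414174, FDR 0.00541), Slc8a1, the sodium calcium exchanger of heart muscle (chromosome 17, 81668151 to 81668574, FDR 0.00718), Slc34a2, a phosphate transporter of lung and gut (chromosome 5, 53089676 to 53089924, FDR 0.00749), and Slc6a11 in an intron (chromosome 6, 114173676 to 114174024, FDR 0.00837). Shorter intronic peaks of Slc7a15 and Slc5a4a had the same FDR as that of Slc6a11. The peaks of Slc9a3 and Slc8a1, although called intergenic, lay inside the RefSeq bodies of these genes. In the IgG list 28 Slc peaks had an FDR of 0 as printed. Of these the longest were at Slc2a13 and Slc6a8, both 500 bp, and at Slc24a3, 475 bp, and those of Slc22a22, Slc35g1 and Slc36a4 followed with 375 bp. All of these but that of Slc36a4 overlapped a ChIP peak.

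**Figure D3:**
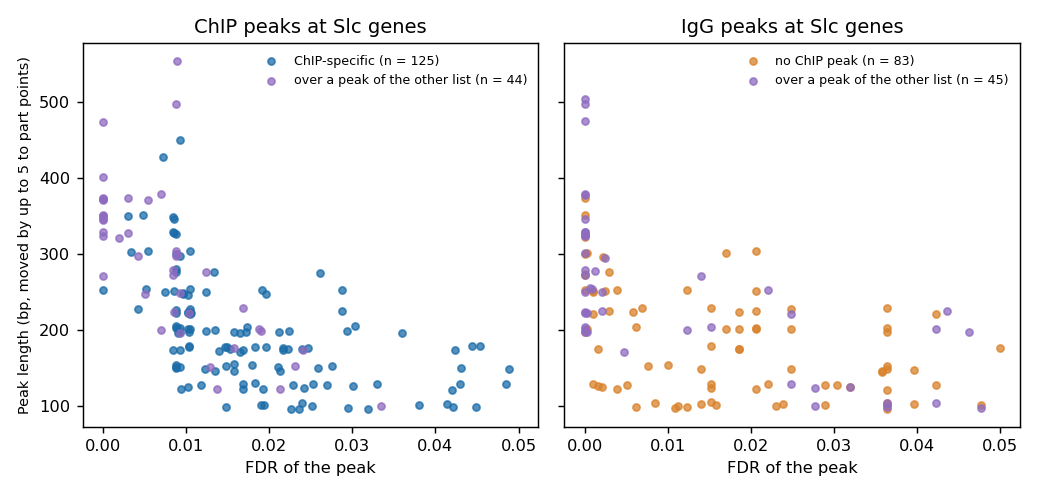
Length in bp against FDR of each Slc peak in the ChIP list (left) and the IgG list (right), with peaks over a peak of the other list in purple, ChIP-specific ones in blue and IgG peaks over no ChIP peak in orange. The ChIP peaks at an FDR of 0 are purple but for 1, and the 125 ChIP-specific peaks lie mostly above an FDR of 0.01 and below 300 bp.

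Peaks were spread over many genes. Of the 80 genes with a ChIP-specific peak, 55 had 1, 11 had 2, 9 had 3 and 5 had 4 or more. Slc16a7, a transporter of pyruvate and lactate, had the most with 5, beside 2 shared ChIP peaks and 6 IgG peaks. None of the ChIP-specific peaks of Slc16a7 was within 100 kb of a start site, the nearest being 183854 bp away (chromosome 10, 125124901 to 125125024, FDR 0.0102), and 2 of them were 252 bp apart. Slc28a3, a sodium-coupled nucleoside transporter, had 4 ChIP-specific and no IgG peaks, from an intronic one (chromosome 13, 58580026 to 58580124, FDR 0.0236) to one 92135 bp upstream of the start (58702876 to 58703149, FDR 0.0133). Slc44a5 also had 4, all in the gene, and 1 IgG peak. Slc8a1 had 4 and 2 IgG peaks, and its ChIP-specific peak from 81670051 to 81670149 (FDR 0.0319) lay 152 bp from an IgG peak, the smallest such gap among Slc genes. Slc22a23 had 4 ChIP-specific, 3 shared and 4 IgG peaks. This order follows assignment to the nearest start site. Counted by gene body or within 5 kb, Slc8a1 and Slc44a5 had 5 ChIP-specific and 2 IgG peaks each, and Slc16a7 had none of either.

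The genes with 3 ChIP-specific peaks were Slc15a4, Slc1a3, a glutamate transporter of astrocytes, Slc22a2, Slc22a29, Slc25a21, the mitochondrial oxodicarboxylate carrier, Slc27a6, Slc35f3, Slc36a4, an amino acid transporter, and Slc38a5. Slc25a21 had 7 IgG peaks and 2 shared ones over a gene of 484839 bp (chromosome 12, 56712634 to 57197472), the longest of all 116. Slc38a5 had no IgG peak over a gene of 8799 bp, with its peaks at 2546 bp upstream (X, 8268476 to 8268699, FDR 0.0102), in an intron (8277776 to 8277999, FDR 0.0288) and in the exon named above. Slc22a2 had no IgG peak either.

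Within 1 kb of an IgG peak lay 5 of the 125 ChIP-specific Slc peaks (4.00%, 1.72 to 9.02), against 2.92% at all other genes, and within 10 kb 22 (17.6%, 11.9 to 25.2) against 19.7%. Genes with an IgG peak held 73 of the 125, and genes without one 52. The smallest gaps after that of Slc8a1 were 327 bp at Slc22a23 and 552 bp at Slc15a5, a peptide transporter family member (chromosome 6, 138005801 to 138005899, FDR 0.0251).

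By family, 37 of the 51 Slc families that RefSeq holds had a member. A member is a gene nearest to a peak of either list, as were 116 of the 373 protein-coding Slc genes. Totals of members are not to be set against the shares of all genes given for single lists. The organic ion transporters of family 22 had the most members, 11 of 25 protein-coding genes, with 16 ChIP-specific, 6 shared and 14 IgG peaks. Family 25, the mitochondrial carriers, had 10 of 47, with 9 ChIP-specific peaks at 6 genes and 15 IgG peaks at 7. Family 6, the sodium- and chloride-dependent transporters of neurotransmitters and creatine, had 10 of 21, with 9 ChIP-specific and 9 IgG peaks at 7 genes each. The nucleotide sugar family 35 had 9 of 27, with 9 ChIP-specific and 15 IgG peaks at 6 genes each. Its gene with the most peaks of all kinds was Slc35f1, with 5 IgG peaks, 2 shared ChIP peaks and 1 ChIP-specific peak (chromosome 10, 52698876 to 52699049, FDR 0.0423). By ChIP-specific peaks alone Slc35f3 came first with 3, followed by Slc35b2 with 2. Counted by gene body or within 5 kb, Slc35f1 came before Slc35f3, with 4 ChIP-specific and 6 IgG peaks against 3 and 2.

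Grouped by substrate, amino acid carriers (families 1, 3, 7, 36, 38 and 43) numbered 19 of 43 protein-coding genes, 12 of them with a ChIP-specific and 13 with an IgG peak. Genes were placed by the family number in their symbol. The 43 thus include Slc7a6os, which is named for its place opposite Slc7a6 and not as a carrier. The counts per list, here and below, stand against 17.5% of all protein-coding genes for ChIP-specific peaks, 17.0% for IgG peaks and 7.98% for both. Totals per class, such as 19 of 43, join the lists and have no such share beside them. The classes were not tested. By peaks of all kinds, in family 7 the leading genes were Slc7a10 and Slc7a15, and in family 38 Slc38a5 and Slc38a4. Carriers of inorganic ions numbered 18 of 59, 14 with a ChIP-specific and 13 with an IgG peak, and 9 with both, such as Slc24a3, Slc4a4 and Slc26a7. Carriers of carboxylates had 4 genes with a ChIP-specific peak, of 19, and all 4 also had an IgG peak. The families grouped as sugar transporters had 4 genes with a ChIP-specific and 7 with an IgG peak, of 28. Classes were formed by whole families, so not every gene of this class carries sugars. Among the 7 were Slc2a13 and Slc5a6, a transporter of biotin and pantothenate in the same family as the sodium glucose transporters.

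Metal carriers are described because the counts of genes by nearest peak differed between the lists, a choice made after the counts were seen. Of 32 genes, 6 were assigned a ChIP-specific peak and no IgG peak, and 1, Slc40a1, was assigned an IgG peak. Counted by gene body or within 5 kb the lists did not differ, with 5 metal carrier genes each. Slc39a11 then had 1 ChIP-specific, 1 shared ChIP and 1 IgG peak, and the IgG peaks of Slc30a1, Slc30a10 and Slc39a10 entered. The 6 by nearest peak were the zinc exporters Slc30a4, Slc30a6 and Slc30a9, the zinc importers Slc39a11 and Slc39a14 and the copper transporter Slc31a2. The peak assigned to Slc30a6 was called intronic but lay outside its RefSeq body (chromosome 17, 74386776 to 74386949, FDR 0.0146). Slc31a2 had an intronic peak 263 bp from its start (chromosome 4, 62286601 to 62286824, FDR 0.0102) and another outside its body (62275901 to 62276174, FDR 0.0261). The peaks of Slc39a11 (chromosome 11, 113556476 to 113556649, FDR 0.0444) and Slc39a14 (chromosome 14, 70326326 to 70326499, FDR 0.0246) lay in introns. The share with a ChIP-specific peak, 6 of 32, is to be read against the 17.5% of all protein-coding genes.

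**Figure D4:**
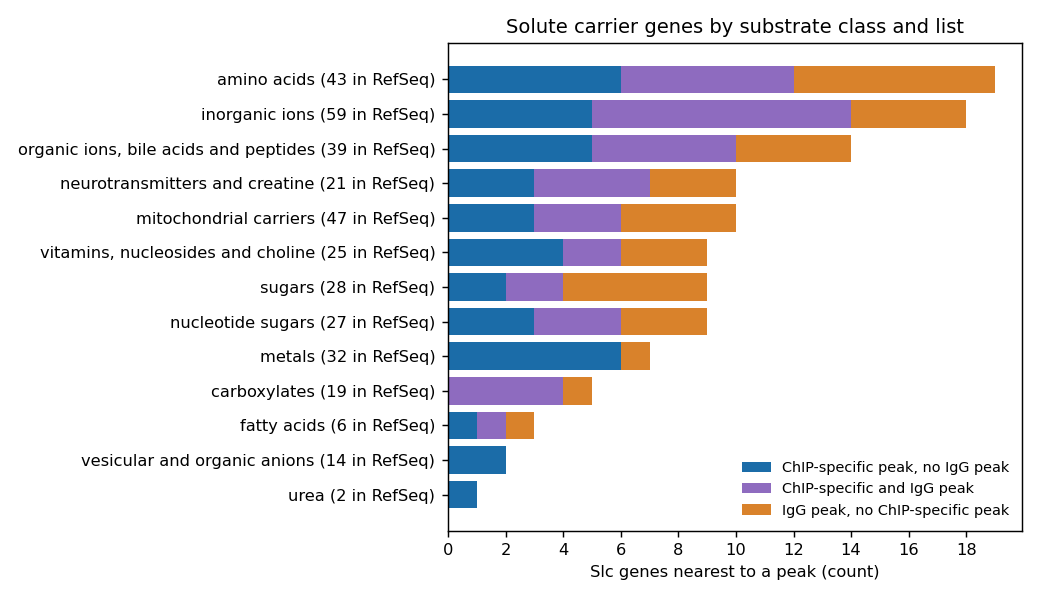
Number of Slc genes nearest to a peak in each substrate class, split into genes with a ChIP-specific peak and no IgG peak (blue), with both (purple) and with an IgG peak and no ChIP-specific peak (orange); the label gives the number of protein-coding Slc genes of the class in RefSeq. Amino acid and ion carriers have the longest bars, 19 and 18, and the metal carriers are blue but for 1 gene, a split that counting by gene body does not show.

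Of 26 transporters known from activated T cells, 9 were among the genes nearest to a peak and 8 were nearest to a ChIP-specific one (30.8%, 16.5 to 50). The 17.5% of all protein-coding genes lay within that interval. An IgG peak was nearest to 4 of the 26. Slc25a5, described above, and Slc12a2, a sodium, potassium and chloride cotransporter, had ChIP-specific promoter peaks. That of Slc12a2 was centred 178 bp upstream (chromosome 18, 57878401 to 57878599, FDR 0.0103), and the gene also had an intronic one (57892976 to 57893174, FDR 0.0102) and 1 IgG peak. Slc36a4 had an intronic peak 148 bp from its start (chromosome 9, 15709826 to 15709949, FDR 0.0485) and 2 upstream, beside 2 IgG peaks. In Slc7a11, the cystine transporter, the peak was intronic (chromosome 3, 50375876 to 50376049, FDR 0.0168), and that of Slc23a2 lay at a termination site. Peaks of Slc4a7, a bicarbonate transporter, and Slc16a7 were over 100 kb from a start. The peak assigned to Slc19a1, the reduced folate carrier, lay 15871 bp from its start and outside its RefSeq body (chromosome 10, 77058576 to 77058749, FDR 0.00928). Slc1a5, the glutamine transporter, had a shared exonic peak and no ChIP-specific one (chromosome 7, 16782001 to 16782299, FDR 0.00880). Slc3a2 and Slc7a5, which form the large neutral amino acid transporter, and the lactate transporter genes Slc16a1 and Slc16a3 were nearest to no peak and had none in the gene or within 5 kb.

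Counted by gene bodies, the T cell transporters stood lower. A ChIP-specific peak lay in the body or within 5 kb of 5 of the 26, and an IgG peak of 4. Over all 373 Slc genes these counts were 68 for each antibody (18.2%, 14.6 to 22.5), against 16.8% of all protein-coding genes for ChIP-specific and 15.9% for IgG peaks. Both background shares lay within the Slc interval. Of the 68 genes with a ChIP-specific peak, 58 were also nearest to one, and 78 of the 125 ChIP-specific peaks lay inside the RefSeq body of their gene.

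Slc genes nearest to a peak were longer and stood in wider surroundings than those nearest to none. The 80 genes nearest to a ChIP-specific peak had a median length of 56.0 kb and the 75 nearest to an IgG peak 56.6 kb. The 257 Slc genes nearest to no peak had 24.8 kb, though some of them held a peak in the body or within 5 kb. Taking as surroundings the gene body with the gap on each side up to its midpoint with the next protein-coding gene, the medians were 128, 133 and 41.5 kb, and for genes with 3 or more ChIP-specific peaks 271 kb. Within classes of surroundings the Slc genes lay near all genes. Under 30 kb, 9 of 107 Slc genes had a ChIP-specific peak (8.41%, 4.49 to 15.2, against 5.72% of all), from 30 to 100 kb 17.6% (12.5 to 24.1, against 13.5%), from 100 to 300 kb 32.4% (22.4 to 44.2, against 29.1%), and at 300 kb or more 20 of 33 (60.6%, 43.7 to 75.3, against 54.2%). All 4 intervals held the share of all genes. For IgG peaks at 300 kb or more the Slc share was 24 of 33 (72.7%, 55.8 to 84.9), against 54.6%.

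**Figure D5:**
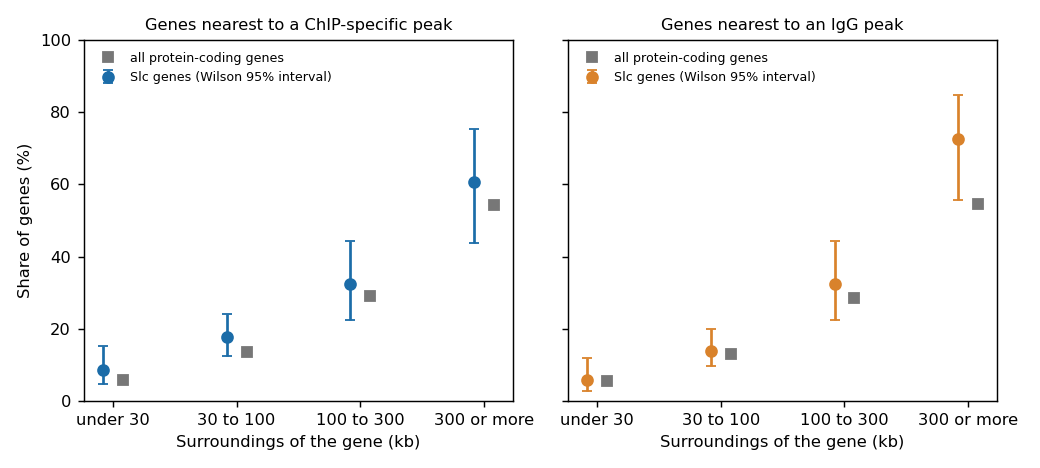
Share of genes, in percent, nearest to a ChIP-specific peak (left) and to an IgG peak (right) by the size of their surroundings in kb; circles are Slc genes with Wilson 95% intervals and grey squares all protein-coding genes. Both rise from under 10% in the smallest surroundings to over 50% in the widest, and the squares lie inside the Slc intervals but for the IgG peaks in the widest.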

How the data were processed

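Per the submitters' processing notes, reads were aligned to mm10 with BWA and HOMER was used, with no version given. No source used here names the program that called peaks or says how the ChIP libraries were joined. The q-value (FDR) of each peak is in the lists the authors deposited, printed to 6 decimals. In the deposited HOMER tables the score was the peak length in bp at every annotated peak. No file gives reads per peak or per library, so depth is unknown, and intervals are Wilson 95% intervals that cover counting of peaks or genes only. Where no value exists per library, no test over samples can be made, and none is reported.

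Peak lists and annotations were joined by position. Overlaps of at least 1 bp with IgG peaks were computed anew, and the 14471 ChIP peaks with none were those of the deposited list. A check against bedtools on simulated intervals gave equal overlaps. Counts of genes were set beside 21896 protein-coding genes of RefSeq (GRCm38.p6), matched by symbol or by a synonym that only 1 gene carries. Of 12195 genes nearest to a peak, 9395 were found there, and all 116 Slc genes were. Promoter windows, 250 bases before to 50 after a start site, came from RefSeq with the same build. Tools were Python 3.11.15, pandas 2.3.3, numpy 2.4.6, scipy 1.17.1 and, for figures, matplotlib 3.10.9.

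The genes, lists and comparisons were chosen with earlier results of these data known. Genes are named by a rule: promoter, exon and termination site peaks, the genes with most peaks, the lowest FDRs, the peaks nearest to a start, T cell transporters with a peak, and the leading gene of each larger family. Of the genes the rule names, 1 is not reported here. The GC box count, the comparison with other protein-coding genes and the FDR limit on ChIP peaks alone were added after values had been seen. The alternatives changed the FDR limit, the distance limit, the chromosomes, the gene assignment, the gene type, the overlap and the promoter definition.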

Additional observations from a re-analysis of the deposited data

How the results depend on the processing

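Of the 6 counts and shares followed, each stayed within 1.5 times its value, or within its interval, when peaks were kept within 100 kb of a start site, on autosomes, by gene body within 5 kb, at protein-coding genes or as shared only with 50% of the ChIP peak covered, where the setting gave a value. With an FDR of 0.01 or lower in both lists, fewer peaks remain, and a ChIP peak over an IgG peak of higher FDR counts as ChIP-specific: 40 Slc genes had a ChIP-specific peak, 46 an IgG peak and 14 both, 47 ChIP-specific peaks were assigned to Slc genes and 4 of them were promoter peaks. The share of ChIP peaks over an IgG peak was then 31.9%. No share of all protein-coding genes is given at this stricter limit, in both lists or in the ChIP list alone. The gene counts under it are thus not to be set against the shares given above. With the limit on the ChIP list alone, an alternative chosen after seeing the data, 32 genes had a ChIP-specific peak and 19 of them an IgG peak too, 37 ChIP-specific peaks were left, 3 of them promoter peaks, and 46.4% of ChIP peaks lay over an IgG peak. With a centre within 1 kb of the start site in place of the promoter class, 20 ChIP-specific peaks counted in place of 12, since exonic and intronic peaks near starts then enter. No paired analysis was possible because the lists give no value per library, and no replicate could be left out for the same reason. Read depth is unknown, so a gene without a peak is not shown to lack binding.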

Other observations

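Some Slc genes had peaks that the nearest start site gave to other genes. A ChIP-specific peak lay in the body or within 5 kb of 8 Slc genes that were nearest to no peak, among them, named after their values were seen, Slc25a46, a protein of the outer mitochondrial membrane, Slc16a9, Slc22a8, an organic anion transporter of the kidney, and Slc35a5. The zinc transporter genes Slc30a1 and Slc39a10 each had 1 shared ChIP peak and 1 IgG peak there and no ChIP-specific one. The start site window of Slc25a40, a mitochondrial carrier (chromosome 5, 8422588 to 8422887), shared 237 bases with a ChIP peak and 212 with an IgG peak, both assigned to Dbf4, a regulator of DNA replication.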
